A study of Eutrema with 12 samples.

Results

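The cDNA microarray carried spots named ACTIN, ACTIN2, TUBULIN and UBQ10, 4 genes that are often used as internal references for transcript levels in plants. Every spot whose name, before a trailing letter, was one of these 4 was taken. They made up 33 of the 13449 cDNA spots on each array and lay at 11 spot positions, each of 3 adjacent spots, out of 4483 positions with 4279 cDNA names in all. ACTIN had 1 position, ACTIN2 had 2, TUBULIN had 3 and UBQ10 had 5, and positions of a name are numbered here in array order (TUBULIN 1 to TUBULIN 3). The name TUBULIN does not say whether an alpha- or beta-tubulin was spotted, and the sources used here do not give the sequences, so that cross-hybridization between ACTIN and ACTIN2, or with further members of these multigene families, was not tested.

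Actin polymerizes into the filaments along which organelles and vesicles move in plant cells, and in Arabidopsis ACTIN2 is the main actin gene of vegetative tissue. Alpha- and beta-tubulin join into dimers that build microtubules, which guide the deposition of cellulose at the cell surface of growing cells. In Arabidopsis, UBQ10 encodes a polyubiquitin, a chain of ubiquitin units that is cut into single ubiquitins, the tags that mark proteins for degradation. Such genes serve as references because their transcripts are assumed to vary little between tissues and treatments, and the comparison here asked how far that held between field and cabinet leaves.

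The field samples were cauline leaves of individual flowering Yukon Thellungiella (Thellungiella salsuginea) plants, harvested at a site near Whitehorse under ambient conditions, 3 plants in 2003 and 3 in 2005. The cabinet samples were cauline leaves of untreated Yukon plants, 12 weeks old, from growth cabinets with long days and cool nights. Each field plant was hybridized against cabinet RNA on 2 arrays with the Cy3 and Cy5 dyes exchanged, 12 arrays in all. The plants are named A, B and C within a year, and the sample labelled C in 2005 is called D in the design text. The field mRNA was amplified once before labelling and the cabinet mRNA was not, so that growth in the field and amplification cannot be told apart in any ratio. Cabinet RNA was the reference on every array, and how many cabinet RNA extracts the 6 field plants were set against is not stated. The paper states that tissue of individual plants was not pooled. If all field plants were set against the same extract, a test of the ratio against 0 leaves out the spread among cabinet plants. If each had its own cabinet plant, that spread is part of the ratios and of their SDs. If an extract served some of the field plants, within a year or across both, their ratios would not be independent. Which of these layouts holds was not tested.

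All values below are log2 ratios of field over cabinet after loess normalization within each array, averaged over the 2 arrays of a plant, so that a value of 0 means the same relative level in the field as in the cabinet plants. A call required at least a 1.5-fold change and a limma p that stayed under 0.05 after Benjamini-Hochberg adjustment over all cDNAs. None of the 396 readings of the 33 spots on 12 arrays was saturated, and in both channels each lay above its local background plus 2 SD. That limit separates little here, because the 87 spots without a name reached a median of 3.55 times their background in the field channel and 3.68 times in the cabinet channel. The number of arrays limits the precision. The 2003 arrays were scanned on 4 days and the 2005 arrays on 2 others, so that scan day and year cannot be told apart. Plants of 2003 varied more than those of 2005 across the array, with a median SD of the log2 ratio over cDNAs of 0.375 and 0.236.

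ACTIN2 and TUBULIN lay below the cabinet level in all 6 field plants, ACTIN in 5 of 6, and UBQ10 in 3 of 6. Plant B of 2003, at -0.02 for ACTIN2, turned to 0.13 with print-tip loess and 0.01 with median centring, and plant A of 2005 turned to 0.01 for TUBULIN with print-tip loess. TUBULIN was lower in the field plants of 2003, by 1.84-fold, and ACTIN2 in those of 2005, by 1.55-fold. ACTIN and UBQ10 passed the test in neither year. In 2003, 1 of the 4 genes was called, against 17.4% of all cDNAs, and 2 had an unadjusted p under 0.05. In 2005, 1 of 4 was called, against 31.5% of all cDNAs, and an unadjusted limma p under 0.05 was found for 2 of 4 and for 1984 of 4279 cDNAs. A count of 1 call in 4 is near both shares of calls. The median log2 ratio of the 4 genes was -0.37 in 2003 and -0.42 in 2005. That of all cDNAs was -0.003 and -0.03, which the loess normalization holds near 0. The median absolute log2 ratio was 0.373 for the 4 genes and 0.354 for all cDNAs in 2003, and 0.419 and 0.464 in 2005. In size the 4 genes thus lay about as far from the cabinet level as other cDNAs. No 95% confidence interval of a gene in either year lay within 1.5-fold of the cabinet level on both sides, so that none of the 4 was shown to be unchanged.

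**Figure D1:**
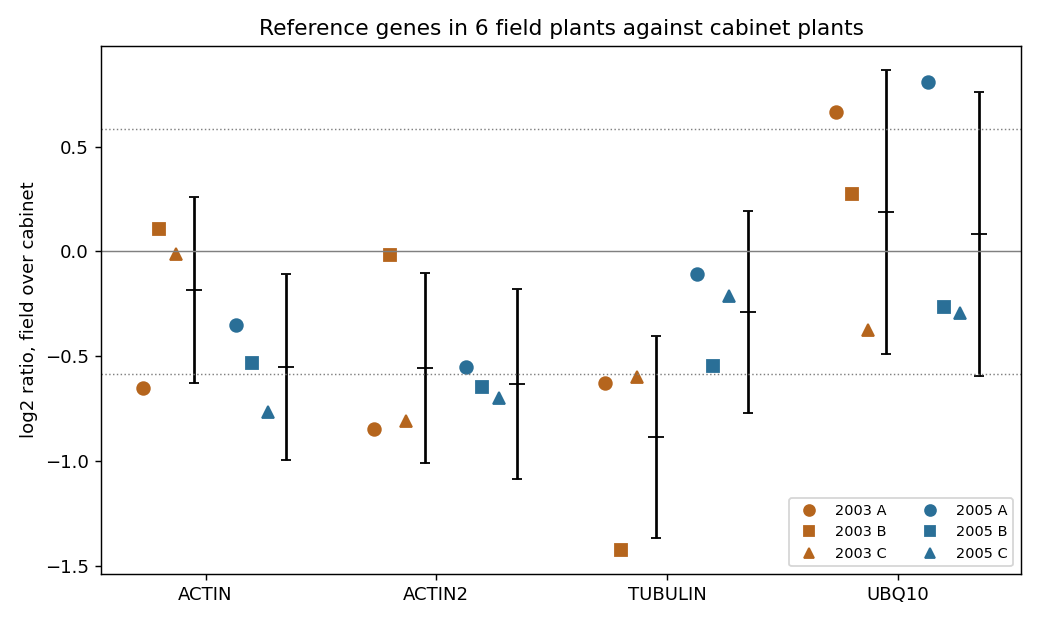
Log2 ratio of field over cabinet (vertical axis) for each of the 4 reference genes in 3 plants of 2003 (brown) and 3 of 2005 (blue). Each symbol is 1 plant (mean of 2 arrays), black bars give the mean of a year with its 95% confidence interval by limma, dotted lines mark a 1.5-fold change, and ACTIN2 and TUBULIN lie below 0 in all 6 plants while UBQ10 lies on both sides.

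ACTIN2, the actin of vegetative tissue, showed the most even ratio among the plants of 2005. Its log2 ratios were -0.85, -0.02 and -0.81 in plants A, B and C of 2003, and -0.55, -0.65 and -0.70 in those of 2005. Plant B of 2003 was the 1 plant near the cabinet level, and the 3 plants of 2005 lay between the others of 2003 and that plant. The mean was -0.56 ± 0.469 (SD, n = 3 plants, 95% confidence interval -1.01 to -0.10, limma adjusted p = 0.0820) in 2003 and -0.63 ± 0.0747 (SD, n = 3, -1.09 to -0.18, limma adjusted p = 0.0422) in 2005. In 15 of 22 other settings of the analysis ACTIN2 was called in 2005, with limma adjusted p from 0.00138 to 0.167, and the call was lost when plant C of 2003 or 1 plant of 2005, whichever it was, was left out. Without plant B of 2003, ACTIN2 was also called lower in that year, at -0.83 (limma adjusted p = 0.0268, with 0.00444 to 0.256 over all 22 settings). A random block for scan day gave a call in 2003 as well (limma adjusted p = 0.0127). That fit took the 12 arrays as units, so that the 2 arrays of a plant counted as replicates. The same holds for the lowest value, 0.00444.

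Both ACTIN2 positions gave this pattern. At ACTIN2 1, plants A, B and C gave log2 ratios of -0.65, -0.07 and -0.67 in 2003, and of -0.46, -0.63 and -0.64 in 2005. At ACTIN2 2 they were -1.04, 0.03 and -0.95 in 2003 and -0.65, -0.66 and -0.76 in 2005. Plant B of 2003 was thus near 0 at both, and ACTIN2 2 exceeded the unnamed spots in both channels on all 12 arrays. The ratio at ACTIN2 1 minus that at ACTIN2 2 was 0.15 ± 0.176 (SD, n = 6 plants) and did not pass an exact two-sided sign-flip permutation test (p = 0.09375, adjusted p = 0.583 over 14 pairs of positions). In 2005 the 2 dye orientations differed at ACTIN2 1. With the field RNA in Cy5, plants A, B and C gave -0.26, -0.25 and -0.36, and in Cy3 -0.66, -1.01 and -0.92. The even values of 2005 at that position were thus means of unlike arrays.

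ACTIN, the other actin on the array, was near the cabinet level in 2 plants of 2003 and below it in every plant of 2005. Its log2 ratios were -0.65, 0.11 and -0.01 in plants A, B and C of 2003, and -0.35, -0.53 and -0.76 in those of 2005. The ranges of the 2 years overlapped, since plant A of 2003 lay among the plants of 2005. The mean was -0.19 ± 0.408 (SD, n = 3, 95% confidence interval -0.63 to 0.26, limma adjusted p = 0.504) in 2003 and -0.55 ± 0.207 (SD, n = 3, -0.99 to -0.11, limma adjusted p = 0.0598) in 2005. In plant B of 2003, where ACTIN was near 0, its cabinet signal was 2.99 and 4.41 times the background on the 2 arrays, close to that of the unnamed spots, whose medians per array ran from 2.31 to 5.34 in that channel and year. In plant C of 2003 the value of -0.01 was the mean of -0.32 on the first array and 0.30 on the second.

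TUBULIN, the microtubule gene, had the lowest mean ratio of the 4 genes in 2003, through plant B, while ACTIN2 was the lower in plants A and C. Its log2 ratios were -0.63, -1.42 and -0.60 in plants A, B and C of 2003, and -0.11, -0.54 and -0.21 in those of 2005. Every plant of 2003 lay below every plant of 2005. The mean was -0.88 ± 0.467 (SD, n = 3, 95% confidence interval -1.36 to -0.40, limma adjusted p = 0.0300) in 2003 and -0.29 ± 0.228 (SD, n = 3, -0.77 to 0.19, limma adjusted p = 0.297) in 2005. TUBULIN was called in 2003 in 14 of 22 other settings, with limma adjusted p from 0.000250 to 0.123, and not with median centring of the arrays (0.0544). The call was also lost without plant B of 2003, where the mean was -0.61 (limma adjusted p = 0.0747) and that of ACTIN2 -0.83, without plant C of 2003, and when 1 plant of 2005 was left out, whichever it was, since both years share the estimate of the spread.

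**Figure D2:**
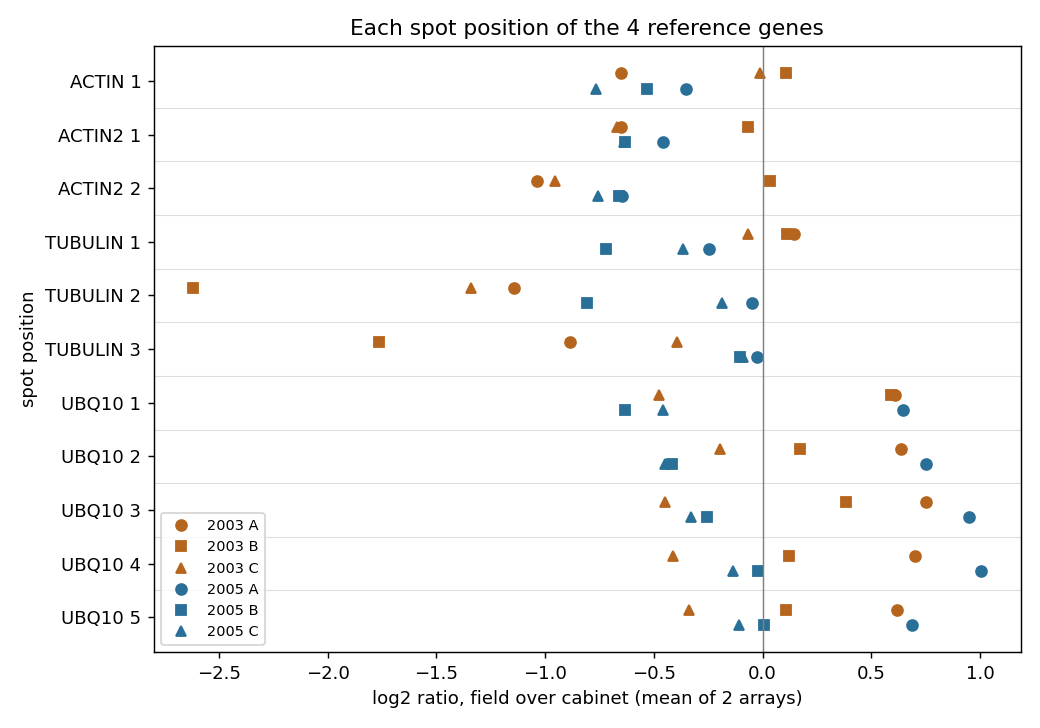
Log2 ratio of field over cabinet (horizontal axis) at each of the 11 spot positions (rows) of the 4 genes in 3 plants of 2003 (brown) and 3 of 2005 (blue), each symbol the mean of 2 arrays. TUBULIN 2 and TUBULIN 3 lie lower in every plant of 2003 than in any plant of 2005, and plant A of 2005 gives the highest value at each UBQ10 position.

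The 3 TUBULIN positions had unlike values. At TUBULIN 2, plants A, B and C gave log2 ratios of -1.14, -2.62 and -1.34 in 2003, and of -0.05, -0.81 and -0.18 in 2005. At TUBULIN 3 they were -0.89, -1.76 and -0.39 in 2003 and -0.03, -0.10 and -0.09 in 2005. At TUBULIN 1 they were 0.14, 0.11 and -0.07 in 2003 and -0.25, -0.72 and -0.37 in 2005, where on no array of 2003 were the spots brighter than those without a name in both channels. Plant B had the lowest ratio of its year at TUBULIN 2 and TUBULIN 3 in both years, and at TUBULIN 1 in 2005. When the test was run on spot positions, 2 of the 11 were called in 2003, against 17.2% of all positions, both of them TUBULIN. These were TUBULIN 2, 3.25-fold lower (-1.70 ± 0.801, SD, n = 3, limma adjusted p = 0.0161), and TUBULIN 3, 2.02-fold lower (-1.01 ± 0.694, SD, n = 3, limma adjusted p = 0.0362). TUBULIN 1 was at 0.06 ± 0.113 in 2003 (SD, n = 3, limma adjusted p = 0.786). Over the 6 plants none of the 3 pairs of TUBULIN positions passed the exact two-sided sign-flip permutation test, which 1 pair alone cannot pass once adjusted over the 14 pairs. TUBULIN 2 minus TUBULIN 3 was -0.48 and below 0 in 6 of 6 plants (exact p = 0.03125, adjusted p = 0.438), TUBULIN 1 minus TUBULIN 2 was 0.83 (exact p = 0.219, adjusted p = 0.583), and TUBULIN 1 minus TUBULIN 3 was 0.35 (exact p = 0.438, adjusted p = 0.681).

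In 2005 none of the 11 positions was called, against 31.3% of all positions. An unadjusted limma p under 0.05 was found at 4 of the 11, and for 1984 of the 4279 cDNAs. ACTIN2 1 passed the adjusted p but lay just below the fold limit (-0.58, 1.49-fold, limma adjusted p = 0.0348), and ACTIN2 2 passed the fold limit but not the adjusted p (-0.69, 1.61-fold, limma adjusted p = 0.0523). With the plant letter as a block, ACTIN2 2 was called (limma adjusted p = 0.0436), in a fit that called 35.7% of all positions.

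The brightness of the TUBULIN positions differed between the years along with their ratios. TUBULIN 1 was brighter than the unnamed spots of the same array in both channels on 0 of 6 arrays of 2003 and on 5 of 6 of 2005. TUBULIN 3 was brighter than them on 6 of 6 arrays of 2003 and on 0 of 6 of 2005. The year in which a position was no brighter than the unnamed spots was in each case the year in which its mean ratio was near 0, at 0.06 for TUBULIN 1 in 2003 and -0.07 for TUBULIN 3 in 2005. TUBULIN 2 was brighter than them on all 12 arrays. At that position the median cabinet intensity was 5160.9 in 2003 and 1543.3 in 2005, or 33.7 and 9.27 times the background, while the median field intensity was 1379.4 and 1028.3. The lower ratio at TUBULIN 2 in 2003 thus went with a brighter cabinet signal. Intensities were not scaled between arrays, and across all 4483 positions the cabinet signal over background of the 2 years correlated at r = 0.738 on the log2 scale, a description in which the points share their arrays. Relative to the median change of all positions, the cabinet signal of TUBULIN 2 changed by -1.79 on the log2 scale from 2003 to 2005. In size this was more than at 88.5% of positions. That of TUBULIN 3 changed by -1.79 and that of TUBULIN 1 by 0.99. Such changes were not particular to TUBULIN. The cabinet signal changed by -1.84 at UBQ10 3, -1.83 at UBQ10 4, -1.63 at UBQ10 5 and 2.09 at ACTIN 1. Their ratios differed between the years by -0.11, 0.15, 0.07 and -0.36. The remaining ACTIN2 and UBQ10 positions changed by -1.10 to 1.02. In the field channel the change was -0.84 at TUBULIN 2, -1.52 at TUBULIN 3 and 0.39 at TUBULIN 1. The part of these signals in the ratios was not tested.

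**Figure D3:**
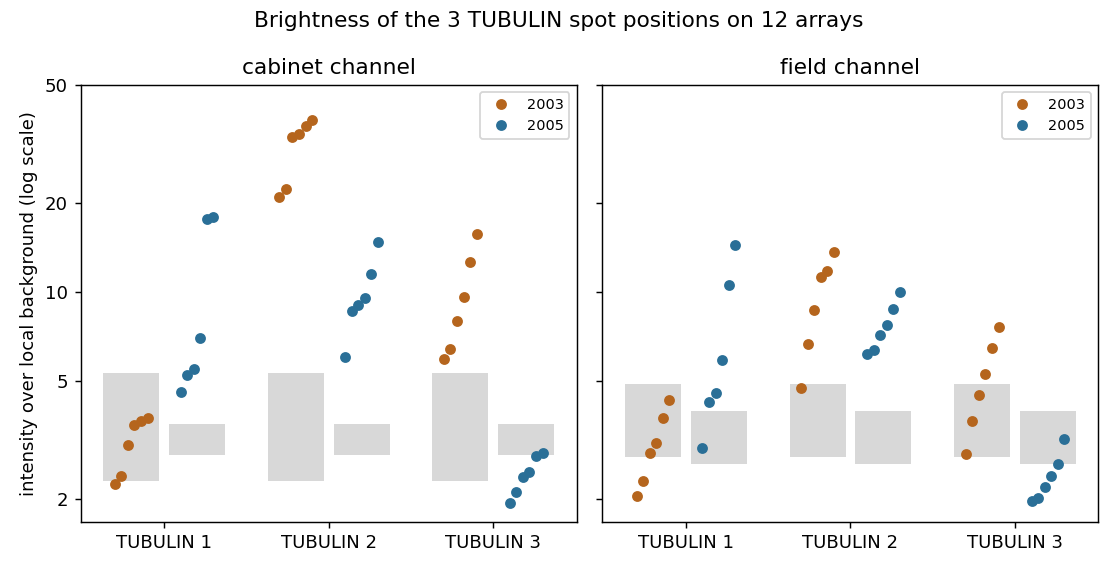
Intensity over local background (vertical log axis) of the 3 TUBULIN spot positions in the cabinet channel (left) and the field channel (right), each point 1 array, with 6 arrays of 2003 (brown) and 6 of 2005 (blue) sorted by value. Grey boxes span the array medians of the 87 spots without a name in that year, from 2.31 to 5.34 in the cabinet channel of 2003, and TUBULIN 1 in 2003 and TUBULIN 3 in 2005 lie within or below these boxes.

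When spots no brighter than the unnamed spots in both channels were left out of an array, TUBULIN 1 remained on 7 and TUBULIN 3 on 8 of the 12 arrays, and TUBULIN 2 on all 12. The TUBULIN ratio was then -1.24 in 2003 (limma adjusted p = 0.0169) and -0.39 in 2005 (limma adjusted p = 0.217). The filter fell mainly on TUBULIN 1 in 2003 and on TUBULIN 3 in 2005, whose mean ratios in those years were 0.06 and -0.07. The values of the 2 years thus rest on unlike positions. With this filter the call of ACTIN2 in 2005 was lost (limma adjusted p = 0.0566).

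UBQ10, the polyubiquitin gene, had a mean near 0 in both years and the largest SD of the 4 genes over the 6 plants. Its log2 ratios were 0.66, 0.27 and -0.38 in plants A, B and C of 2003, and 0.81, -0.26 and -0.30 in those of 2005. Plant A was the highest and plant C the lowest in each year, and the ranges of the years overlapped widely. The mean was 0.19 ± 0.525 (SD, n = 3, 95% confidence interval -0.49 to 0.87, limma adjusted p = 0.666) in 2003 and 0.08 ± 0.628 (SD, n = 3, -0.60 to 0.76, limma adjusted p = 0.842) in 2005. Both intervals reach past 1.5-fold on the higher side, and that of 2005 also on the lower side. Without plant A of 2005 the mean of that year was -0.28, and without plant A of 2003 that of 2003 was -0.05.

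The 5 UBQ10 positions followed each other. In plant A they ranged from 0.61 to 0.75 in 2003 and from 0.64 to 1.00 in 2005. In plant C they ranged from -0.48 to -0.20 in 2003 and from -0.46 to -0.11 in 2005. Plant B lay between 0.11 and 0.59 in 2003, and between -0.63 and 0.00 in 2005. Plant A was thus the highest of its year at each of the 5 positions in both years. All 5 positions were brighter than the unnamed spots in both channels on all 12 arrays, at medians of 21.5 to 103 times the background in the field channel. None of the 10 pairs of UBQ10 positions differed by the exact two-sided sign-flip permutation test (smallest adjusted p = 0.583 over the 14 pairs of positions of 1 gene), and their mean differences ran from -0.16 to 0.05. A test over 6 plants cannot give a p below 0.03125.

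Averaged over both years, 2 of the 4 genes were called, against 28.6% of all cDNAs, and 3 had an unadjusted p under 0.05. ACTIN2 was lower by 1.51-fold (-0.59 ± 0.303, SD, n = 6 plants, limma adjusted p = 0.0140) and TUBULIN by 1.501-fold (-0.59 ± 0.463, SD, n = 6, limma adjusted p = 0.0177), so that both lay at the fold limit. ACTIN was at -0.37 ± 0.351 (SD, n = 6, limma adjusted p = 0.0611) and UBQ10 at 0.14 ± 0.521 (SD, n = 6, limma adjusted p = 0.607). ACTIN2 kept this call in 13 and TUBULIN in 10 of 21 other settings, with limma adjusted p from 0.000129 to 0.0528 and from 0.000192 to 0.0652. Of the positions, ACTIN2 2 (-0.67, limma adjusted p = 0.0157) and TUBULIN 2 (-1.02, limma adjusted p = 0.0111) were called, 2 of 11 against 28.5% of all.

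Between the years none of the 4 genes was called by limma, against 1.59% of all cDNAs. None had an unadjusted limma p under 0.05, against 1163 of the 4279 cDNAs. The ratio of 2005 minus that of 2003 was 0.59 for TUBULIN (95% confidence interval -0.09 to 1.28, limma adjusted p = 0.231), -0.36 for ACTIN (-0.99 to 0.26, limma adjusted p = 0.411), -0.07 for ACTIN2 (-0.72 to 0.57, limma adjusted p = 0.878) and -0.11 for UBQ10 (-1.06 to 0.85, limma adjusted p = 0.884). Each of these intervals leaves room for a change of more than 1.5-fold in at least 1 direction, and that of ACTIN2 was the narrowest after ACTIN, at ratios between 0.609 and 1.48. Of the positions none was called, against 1.58% of all. The 3 TUBULIN positions, of the 11, had an unadjusted limma p under 0.05, a share near that of the cDNAs. TUBULIN 2 went from -1.70 to -0.35, by 1.35 with a standard error of 0.433 (limma adjusted p = 0.119), and passed with the plant letter as a block (limma adjusted p = 0.0418), in a fit that called 8.52% of all positions.

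The spread over the 6 plants, which includes the difference between the years, gave another order than the distance from the cabinet level. The SD of the log2 ratio was 0.303 for ACTIN2, 0.351 for ACTIN, 0.463 for TUBULIN and 0.521 for UBQ10, and the median over all cDNAs was 0.423. These SDs exceeded those of 31.0%, 39.2%, 55.1% and 62.0% of all cDNAs. The highest and lowest plant differed by 1.78-fold for ACTIN2, 1.83-fold for ACTIN, 2.27-fold for UBQ10 and 2.49-fold for TUBULIN. The order depended on the year. Among the plants of 2005, the SD of ACTIN2 exceeded that of 9.09% of cDNAs and that of UBQ10 exceeded 90.9%, and among the plants of 2003 the figures were 62.0% and 67.3%. Read as the root mean square distance from the cabinet level over the 6 plants, the values were 0.488 for ACTIN, 0.494 for UBQ10, 0.656 for ACTIN2 and 0.723 for TUBULIN, against a median of 0.606 over all cDNAs. UBQ10 was thus among the nearest of the 4 to the cabinet level and had the largest SD between plants, while TUBULIN had the largest range. ACTIN2 was shifted from the cabinet level but had the smallest SD and range. The geNorm M value, the mean SD of the difference from each of the other 3 genes, was 0.518 for ACTIN2, 0.558 for ACTIN, 0.626 for UBQ10 and 0.715 for TUBULIN. No test was run on these measures of spread.

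Differences between genes on the same arrays do not depend on a shift of all ratios in common. They can still change with the kind of normalization. The mean of ACTIN2 minus UBQ10 was -0.60 with print-tip loess and -0.77 with median centring. ACTIN2 minus UBQ10 was -1.51, -0.29 and -0.44 in plants A, B and C of 2003 and -1.36, -0.38 and -0.40 in those of 2005. ACTIN2 was below UBQ10 in 6 of 6 plants, and plant A stood apart in both years. Plants of 1 letter thus gave like values in both years. The sign-flip test takes the 6 plants as independent, so that its p leaves out this likeness. The mean was -0.73 ± 0.550 (SD, n = 6 plants, exact two-sided sign-flip permutation test, p = 0.03125, the smallest it can give, adjusted p = 0.125 over the 6 pairs). TUBULIN minus UBQ10 was -0.72 ± 0.693 (SD, n = 6, exact p = 0.0625, adjusted p = 0.125), with TUBULIN above UBQ10 in 1 of 6 plants. ACTIN minus ACTIN2 was 0.23 ± 0.297 (SD, n = 6, exact p = 0.0625, adjusted p = 0.125), from -0.07 to 0.80. The 2 actins were within 0.20 of each other in each plant except plant C of 2003. ACTIN minus UBQ10 was -0.50 ± 0.634 (SD, n = 6, exact p = 0.125, adjusted p = 0.188). ACTIN minus TUBULIN was 0.22 ± 0.743 (SD, n = 6, exact p = 0.594, adjusted p = 0.713), and ACTIN2 minus TUBULIN was -0.01 ± 0.709 (SD, n = 6, exact p = 1), both with plant B of 2003 as the highest value. None of the 6 pairs passed the adjusted test, which 1 pair alone cannot pass.

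**Figure D4:**
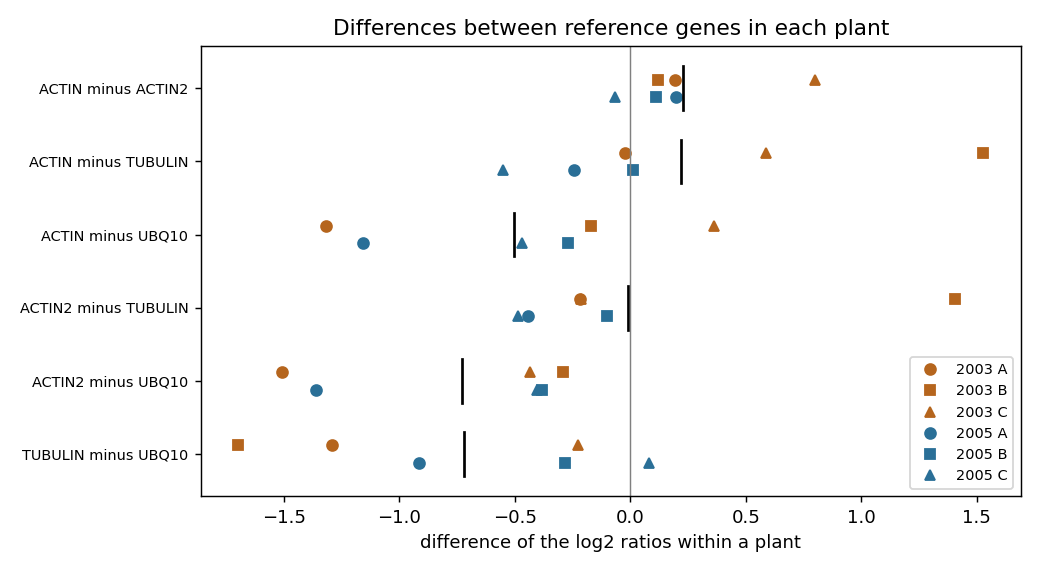
Difference between the log2 ratios of 2 reference genes in the same plant (horizontal axis) for the 6 pairs of genes (rows), with 3 plants of 2003 (brown), 3 of 2005 (blue) and the mean as a black bar. ACTIN2 lies below UBQ10 in all 6 plants, by most in the 2 plants named A, and plant B of 2003 stands apart at 1.53 in ACTIN minus TUBULIN and at 1.41 in ACTIN2 minus TUBULIN.

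The 2 dye orientations were compared at each position. The array with the field RNA in Cy5 minus the array with it in Cy3 passed the exact two-sided sign-flip permutation test at 0 of 11 positions (smallest p = 0.0625, adjusted p = 0.286, n = 6 plants), a test that 1 position alone cannot pass once adjusted over 11. The means of the 2 orientations were -0.75 and -0.34 at TUBULIN 3, the first lower in 5 of 6 plants, and -0.04 and -0.34 at TUBULIN 1, the first higher in 5 of 6 plants. At ACTIN2 1 they were -0.42 and -0.62, the first higher in 5 of 6 plants. The SD of the difference there, 0.513, was the largest of the 11 positions. The median absolute difference between the 2 arrays of a plant was 0.232 for the 11 positions and 0.214 for all positions. The largest single difference was 1.13, at TUBULIN 3 in plant C of 2003, with -0.96 on the first array and 0.17 on the second.

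Of the cDNAs with a gene name, that with the pattern over the 6 plants most like that of ACTIN was ACTIN2, at a root mean square difference of the log2 ratio of 0.354, and 141 of the 4278 other cDNAs were nearer to ACTIN. For TUBULIN it was EIF, named after a translation initiation factor, at 0.559 with 594 cDNAs nearer, and for UBQ10 it was STEROID SULFOTRANSFERASE, at 0.417 with 148 nearer. Clones, which the array files do not name by gene, were closer still, such as drt8_c08 for TUBULIN at 0.101 and cld19_d06 for UBQ10 at 0.130. Of the 28 gene names on the array, EIF and ELONGATION FACTOR are also of kinds used as references, and none matched the 35 exact names of other reference and leaf genes that were looked for, so that leaf identity could not be checked here.

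To show what each gene would do as the reference, its log2 ratio was subtracted from every ratio of the same plant and the test was run again. With loess alone, 743 cDNAs were called in 2003, 57.9% of them higher in the field, and 1349 in 2005, 52.0% higher. With TUBULIN as the reference, 2661 cDNAs were called in 2003, 97.1% higher, and 1027 in 2005, 73.2% higher. With ACTIN2 it was 1404 in 2003, 95.4% higher, and 1859 in 2005, 91.5% higher. The direction of this move follows from the subtraction, since a reference below the cabinet level raises every ratio of the plant, and only its size is a property of the data.

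With ACTIN as the reference, 647 cDNAs were called in 2003 (79.4% higher) and 1639 in 2005 (88.1% higher). With UBQ10, 394 were called in 2003 (49.2% higher) and 556 in 2005 (41.9% higher). Of the 4 genes UBQ10 thus gave the fewest calls and those most evenly divided, and its spread between plants went with a median standard error over cDNAs of 0.454, against 0.192 without a reference gene. Of the calls with UBQ10, 322 of 394 in 2003 and 498 of 556 in 2005 were also called with loess alone, which is a part of the 743 and 1349 calls of loess. With TUBULIN in 2003, 503 of 2661 were shared, and with ACTIN2 in 2005, 859 of 1859. With the mean of the 4 genes, 1082 cDNAs were called in 2003 (88.1% higher) and 1491 in 2005 (79.4% higher), and the median log2 ratio of all cDNAs moved to 0.36 and 0.32.

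**Figure D5:**
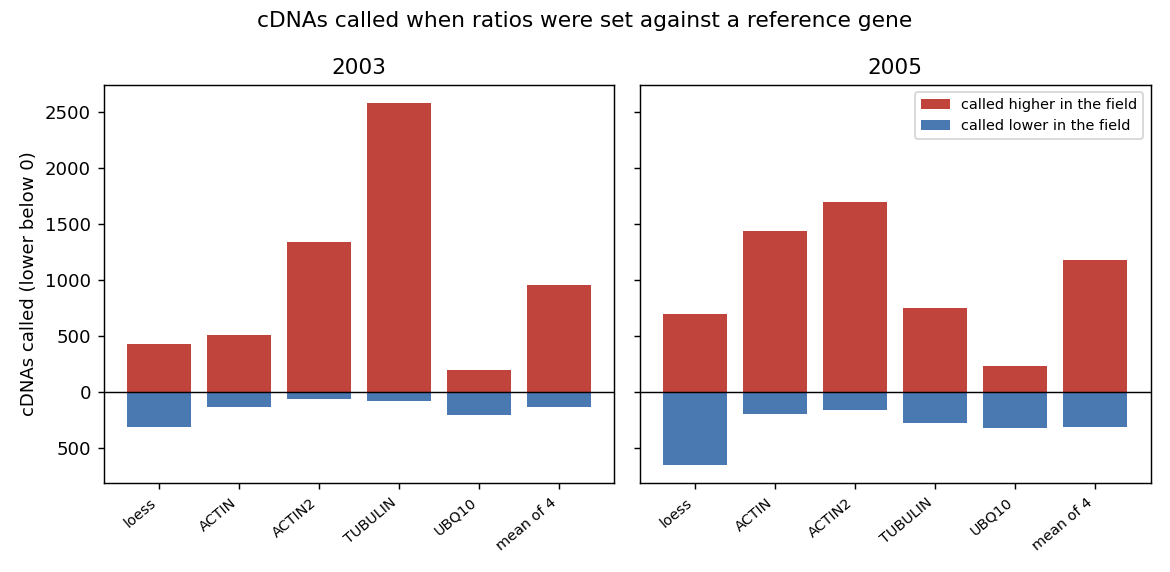
Number of cDNAs called higher (red, above 0) and lower (blue, below 0) in the field than in the cabinet in 2003 (left) and 2005 (right), with loess normalization alone or after the ratio of a reference gene, or the mean of the 4, was subtracted from all ratios of a plant. The bars of higher calls reach 2583 with TUBULIN in 2003 and 1701 with ACTIN2 in 2005, against 430 and 701 with loess alone.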

How the data were processed

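Per the file headers, the authors deposited QuantArray tables of spot and local background intensity in both channels, neither background subtracted nor normalized. Channel 1 held cabinet and channel 2 field RNA on all 12 arrays, by the labels and the image dyes. The authors also deposited processed values on a log10 scale, which followed the scanner ratios of field over cabinet at r = 0.934 to 0.994, with column medians from -0.0188 to 0.0126. Their normalization is not stated in these sources, and they served as an alternative. Here, R 4.3.3 and limma 3.58.1 were used for background correction (normexp, offset 50) and for normalization of the log2 ratio within arrays (loess, control spots at weight 0). Ratios were averaged over spots, then over both arrays of each plant. A fit with a mean for each of the 2 years shared 1 spread per cDNA (4 residual and 2.66 prior degrees of freedom), over 4279 cDNAs or 4483 spot positions. The code was also run on simulated independent noise with known changes. That simulation lacks deviations shared between plants, so that it does not show how the fit behaves on these data. Pairs of genes, pairs of positions and dye orientations were compared by exact sign-flip permutation tests. These tests take the 6 plants as independent and leave out the plant letter. No 2 arrays held identical values. The p-values measure the spread between the ratios of single field plants, and whether these had separate cabinet extracts is not stated.

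All 4 genes and their 11 positions are described, with the gene-named cDNA nearest to each and 2 clones. The genes, lists and tests were chosen with earlier results of these data known. Alternatives changed background correction, normalization, scaling, averaging, filters on saturated or dim spots, the replicate unit, blocks, the call rule and single plants. The rule with no fold limit can only add calls. No spot of the 4 genes was saturated, so that leaving out saturated spots did not change their ratios. The counts of settings that kept a call include both. With the 12 arrays as independent replicates, and with the random block for scan day, the 2 arrays of a plant counted as separate replicates. The lowest limma adjusted p of each range given for ACTIN2 and TUBULIN came from the first of these settings. Plants of the 2 years share letters, and across cDNAs, plants of 1 letter deviated together from the mean of their year (r = 0.576 for A, 0.243 for B and 0.314 for C, against -0.331 to 0.0515 for other letters), so the letter was taken as a pairing read from these data.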

Additional observations from a re-analysis of the deposited data

Results flagged for a closer look

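TUBULIN 2 passed the test between the years when the plant letter entered the fit as a block. That pairing was read from these same data and is not given by the labels. The fit with the block called 8.52% of all positions between the years, against 1.58% without it. The log2 ratio of TUBULIN 2 in 2005 minus that in 2003 was 1.35, with a standard error of 0.433 without the block (limma adjusted p = 0.119) and of 0.230 with it (limma adjusted p = 0.0418). Each plant of 2005 lay above each plant of 2003. The difference was -0.51 for TUBULIN 1 (limma adjusted p = 0.175) and 0.94 for TUBULIN 3 (limma adjusted p = 0.154), neither of them past the test. With 3 plants a year, single plants were not tested for standing apart.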

How the results depend on the processing

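The number of genes called in 2003 (TUBULIN, 1) was 0 with median centring, with each year fitted alone and with log odds above 0 in place of the adjusted p, 2 without normalization and with a random block for scan day (ACTIN2 and TUBULIN), and 0 to 1 without single plants. In 2005 (ACTIN2, 1) it was 0 with print-tip loess, without dim spots and with log odds, and 0 to 1 without single plants. For the mean of both years (2) it was 0 without background correction, with subtracted background, print-tip loess, the deposited values or log odds, 1 with median centring, arrays scaled to each other or the scan day as a block, 3 without normalization, where ACTIN was called too (-0.73, limma adjusted p = 0.0186, its 1 call in any setting), and 0 to 2 without single plants. The fold limit decided many of these, since both genes lay at it. Between the years (0) it was 1 (TUBULIN) with the 12 arrays as independent replicates.

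Of the positions, 2 were called in 2003, and 4 without normalization, 1 without dim spots, 0 with each year alone or log odds, and 1 to 3 without single plants. In 2005 none was called, but 1 with the replicate block, with no or subtracted background, print-tip loess, median centring, the deposited values, 12 arrays, each year alone, the scan day or no fold limit, 3 without normalization, and 0 to 1 without single plants. For the mean of both years the count of 2 became 1 with print-tip loess, 5 without normalization, 0 with log odds, 4 with no fold limit and 1 to 3 without single plants. Between the years it was 2 with the 12 arrays and 1 with the replicate block (TUBULIN 2), and the block changed no call of the 4 genes. Called on the whole array were 743 in 2003, against 1404 with ACTIN2, 2661 with TUBULIN and 394 with UBQ10 as the reference, and 1349 in 2005, against 556 with UBQ10.

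Signs turned for UBQ10, for the difference between ACTIN2 and TUBULIN, which lay near 0, and for a few other values. Without normalization the median of all cDNAs moved by -0.48 in 2003 and -0.27 in 2005, and UBQ10 was at -0.33 in 2003, -0.12 in 2005 and -0.22 in their mean, but 0.15 and 0.19 above that median in 2003 and 2005. Without single plants its ratio ran from -0.0504 to 0.469 in 2003, from -0.280 to 0.272 in 2005, and from -0.0461 to 0.276 in the mean. Its difference between years was 0.0329 with print-tip loess, 0.0420 with median centring, 0.21 without normalization, and -0.47 to 0.13 without single plants. ACTIN in 2003 ran from -0.331 to 0.0477 without single plants. The ACTIN2 difference between years was 0.0221 without normalization, 0.00120 without dim spots, and -0.22 to 0.20 without single plants. ACTIN minus TUBULIN ran from -0.0432 to 0.373 without single plants, and ACTIN2 minus TUBULIN from -0.292 to 0.0867, and the latter was 0.0539 with print-tip loess, 0.00565 with the deposited values and 0.0716 with medians over spots. None of these turned values passed its test, and the causes were not tested.

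With 3 plants a year, single plants decided most calls. Spot positions no brighter than the unnamed spots bound what TUBULIN 1 in 2003 and TUBULIN 3 in 2005 can show.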

Other observations

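The array also held cDNAs named EIF, after a translation initiation factor, and ELONGATION FACTOR, after a factor of the elongation step of translation, both of kinds used as references as well. These names were looked at after the names on the array had been seen. The log2 ratios of EIF (2 spot positions) were -0.87, -0.25 and -0.34 in plants A, B and C of 2003 and -0.35, -0.55 and 0.35 in those of 2005. Those of ELONGATION FACTOR (1 position) were -0.82, -0.10 and -0.04 in 2003 and -0.29, -0.43 and 0.39 in 2005. In both cDNAs plant A was the lowest of 2003 and plant C of 2005 the 1 plant above the cabinet level, while in UBQ10 plant A was the highest of its year. Neither was called. For EIF the mean was -0.49 (limma adjusted p = 0.153) in 2003 and -0.18 (limma adjusted p = 0.539) in 2005, and for ELONGATION FACTOR -0.32 (limma adjusted p = 0.343) and -0.11 (limma adjusted p = 0.743). Their SDs over the 6 plants were 0.402 and 0.408, between those of ACTIN and TUBULIN.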
